A study of Rattus norvegicus with 6 samples.

Results

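The miR-30 family was described in the rat hypothalamic arcuate nucleus (ARC) across 6 small RNA libraries. Its members are taken by name: rno-miR-30a-5p, rno-miR-30a-3p, rno-miR-30b-5p, rno-miR-30b-3p, rno-miR-30c-5p, rno-miR-30c-1-3p, rno-miR-30d-5p, rno-miR-30d-3p, rno-miR-30e-5p and rno-miR-30e-3p, written below without the rat prefix. These 10 members were among 562 mature miRNAs listed in every library, and all 10 passed the filter for testing, a mean of at least 1 normalized count over the 6 libraries. The libraries came from Sprague-Dawley rats aged 8 to 10 weeks, taken on Day 14 after surgery. In 3 libraries the rats carried loose ligatures around the left infraorbital nerve (chronic constriction injury of the infraorbital nerve, CCI-ION, a model of trigeminal neuropathic pain). In the other 3 the nerve was only exposed (sham). Both groups therefore shared anaesthesia and nerve exposure, and the labels do not say whether a library held 1 rat or several. The legend of the study's miRNA heatmap names more rats a group than there are libraries, without saying how rats were assigned to them. The p-values below measure only the spread between these libraries.

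A miRNA is cut from a hairpin precursor, and either arm of the hairpin, 5p or 3p, can be loaded into an Argonaute protein. Bases 2 to 8 of the loaded strand, the seed, pair with target mRNAs and lead to their repression. The 5p arms of the miR-30 family share 1 seed and are usually the more abundant strands. The family is widely expressed and is known for roles in cell differentiation, autophagy and the control of epithelial and mesenchymal genes.

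The RefSeq miRNA table (assembly GRCr8) held 5 of the 10 members. Of the 5p arms it held miR-30a-5p at chr9:33233946-33233967 on the plus strand, miR-30e-5p at chr5:139637504-139637525 on the minus strand, and miR-30c-5p at 2 places, chr5:139634505-139634527 on the minus strand and chr9:33253695-33253717 on the plus strand. They are shown 5′ to 3′ with the seed in capitals, because the shared seed defines the family and the bases after it set how far reads of the members can be told apart. miR-384-5p, at chrX:74490939-74490961 on the minus strand, is not a member but carries the same seed.
miR-30a-5p: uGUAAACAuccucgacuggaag
miR-30e-5p: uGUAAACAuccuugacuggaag
miR-30c-5p: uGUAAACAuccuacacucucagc
miR-384-5p: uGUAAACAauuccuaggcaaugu

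Counted from 1 at the 5′ end, miR-30a-5p and miR-30e-5p are identical but for C13U. Between miR-30a-5p and miR-30c-5p the first 12 bases are identical, and the differences over the first 22 positions are C13A, G14C, G18C, G19U and A20C. The counting rule for reads with mismatches is not given in the sources used here, so reads of miR-30a-5p and miR-30e-5p could be split between them, and their single values are uncertain to that extent. The 3p arms in the table carry other seeds. miR-30c-1-3p (chr5:139634467-139634488, minus strand) and miR-30c-2-3p (chr9:33253735-33253756, plus strand), the 3p arms of the 2 miR-30c hairpins, have the same seed, and miR-30a-3p (chr9:33233987-33234008, plus strand) has a different one.
miR-30a-3p: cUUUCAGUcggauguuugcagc
miR-30c-1-3p: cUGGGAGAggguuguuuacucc
miR-30c-2-3p: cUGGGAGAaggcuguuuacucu

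From miR-30c-1-3p to miR-30c-2-3p the differences are G9A, U12C and C22U. The hairpins lie in 3 clusters: Mir30b with Mir30d (3.7 kb apart), Mir30a with Mir30c2 (19.7 kb), and Mir30e with Mir30c1 (2.9 kb). In the RefSeq gene table Mir30e and Mir30c1 lie within the bounds of Nfyc, a subunit gene of a CCAAT-binding transcription factor. Mir30b and Mir30d lie within those of the long non-coding RNA LOC102551574. Mir30c2 lies within those of the pseudogene Rbx1-ps1 and the long non-coding RNA LOC134480562, and no listed gene spans Mir30a. miR-30c-5p can come from either Mir30c1 or Mir30c2, so its reads cannot be assigned to a cluster. miR-30b-5p, miR-30b-3p, miR-30d-5p, miR-30d-3p and miR-30e-3p were matched by name only.

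The libraries held 11115049, 13611671 and 14313839 miRNA reads in sham and 11297551, 8628309 and 9586078 in CCI-ION. Each deposited value was read, from the pattern of the values alone, as a number of reads over the library's own size factor, and is given below as a normalized count. Read numbers and their intervals rest on that reading. A read covers about a whole mature miRNA, so levels were compared between members without a length correction. No member was listed at 0 in any library, and the fewest reads behind a value were 80, for miR-30d-3p in CCI-ION replicate 2. Of the 555 miRNAs tested, 38 passed the threshold, an adjusted p under 0.05 from limma with Benjamini-Hochberg adjustment, 19 higher and 19 lower in CCI-ION. That balance depended on the scaling of the libraries: 42 were higher and 9 lower with total counts, and 10 were higher and 84 lower with upper quartiles. The most abundant miRNA, miR-7a-5p, held 20.1% ± 3.93 of a sham library and 11.4% ± 3.05 in CCI-ION (SD, n = 3 libraries each).

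Of the 10 members, 2 passed the threshold, miR-30d-5p and miR-30e-3p, and both were higher in CCI-ION. Of all miRNAs tested, 6.85% passed in either direction and 3.42% in that one. An unadjusted p under 0.05 with a higher level in CCI-ION was found for 6 members, against 15.5% of all miRNAs (33% in either direction). In either direction the number of members with such a p was 2 with upper quartiles (36.9% of all miRNAs), 4 with TMM (32.4%), 9 with total counts (33.9%) and 3 without sham replicate 2 (21.6%). The groups did not overlap, with CCI-ION higher, for 6 members, against 19.5% of all miRNAs (40.7% in either direction). All 10 log2 fold changes were above 0, against 48.8% of all miRNAs, and they ranged from 0.11 to 1.22 with a median of 0.45, where the median of all miRNAs was -0.01. With upper-quartile scaling, which moved the median of all miRNAs to -0.26, the fold change of miR-30c-5p was -0.14 and the other 9 stayed above 0.

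**Figure D1:**
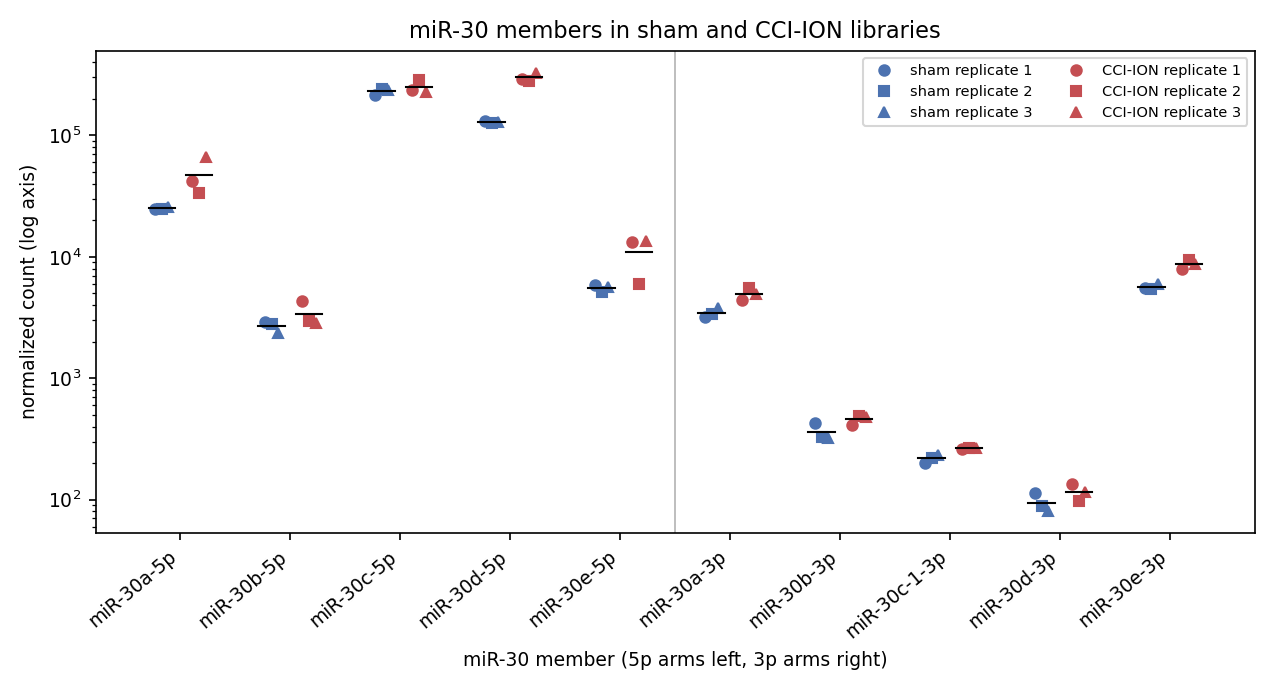
Normalized counts of the 10 members (log axis) in each of the 3 sham and 3 CCI-ION libraries, 1 point a library, with a bar at the group mean. miR-30d-5p stands at 126777 to 130337 in sham and 279709 to 328138 in CCI-ION, while the groups of miR-30c-5p overlap.

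miR-30d-5p rose, with the highest log2 fold change of the members over all 6 libraries, although without CCI-ION replicate 2 that of miR-30e-5p was 1.27 and that of miR-30d-5p 1.26. Sham replicates 1, 2 and 3 had 130337, 126777 and 128670 normalized counts of it, and CCI-ION replicates 1, 2 and 3 had 290383, 279709 and 328138. Every CCI-ION library was above every sham library, and the sham libraries lay close together. The mean went from 128595 ± 1781 to 299410 ± 25445 (SD, n = 3 each). Its log2 fold change was 1.22 (standard error, SE, 0.11, 95% confidence interval 0.94 to 1.49, adjusted p = 0.00775 from limma). Its fold change ranked 21 of the 555 miRNAs tested and 2 among the 50 most abundant. By abundance it stood at rank 18 of all miRNAs in sham and at rank 7 in CCI-ION. The call held without any single library.

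miR-30c-5p, the most abundant member in sham, had 216850, 240181 and 237403 normalized counts in sham and 236173, 287440 and 227578 in CCI-ION. The groups overlapped, and the log2 fold change of 0.11 (95% confidence interval -0.23 to 0.44) did not pass the test (adjusted p = 0.594 from limma). Without CCI-ION replicate 2 it was 0.0037. In sham every library had more miR-30c-5p than miR-30d-5p, whereas in CCI-ION their ranges overlapped.

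miR-30a-5p was at 24616, 24890 and 25686 normalized counts in sham and at 41859, 33371 and 65889 in CCI-ION. The groups did not overlap, but the CCI-ION libraries spread widely, from 33371 to 65889. The log2 fold change was 0.85 (SE 0.26, 95% confidence interval 0.20 to 1.50) and its adjusted p was 0.103 from limma.

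miR-30e-5p, which differs from miR-30a-5p at 1 base, was at 5826, 5107 and 5676 normalized counts in sham and at 13234, 5917 and 13495 in CCI-ION. CCI-ION replicate 2 lay just above the sham libraries and far below the other CCI-ION libraries. The log2 fold change of 0.88 (SE 0.35, adjusted p = 0.147 from limma) became 1.27 without CCI-ION replicate 2, and its adjusted p was then 0.0117. It was 0.69 (adjusted p = 0.269) without CCI-ION replicate 1 and 0.68 (adjusted p = 0.316) without CCI-ION replicate 3.

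miR-30b-5p, the least abundant of the 5p members, had 2890, 2809 and 2341 normalized counts in sham and 4312, 2963 and 2861 in CCI-ION. Only CCI-ION replicate 1 stood clearly above sham, and the groups overlapped. The log2 fold change was 0.31 (SE 0.20, adjusted p = 0.309 from limma), and it was 0.13 without CCI-ION replicate 1 and 0.067 with upper quartiles. The order of the 5p members was thus miR-30c, miR-30d, miR-30a, miR-30e and miR-30b in sham, where no neighbours overlapped, and miR-30d stood above miR-30c by the means in CCI-ION.

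**Figure D2:**
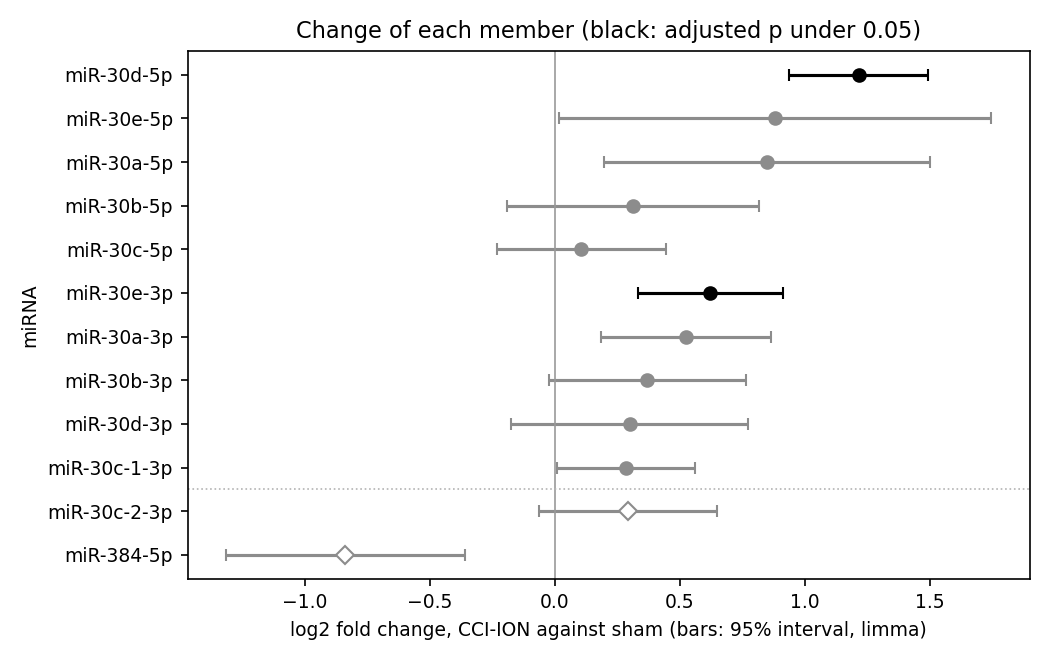
Log2 fold change (CCI-ION over sham) of each member on the log2(normalized count + 1) scale, with its 95% confidence interval from limma over 3 libraries a group, black where the threshold was passed, and of miR-30c-2-3p and miR-384-5p outside the members (open diamonds). miR-30d-5p (1.22) and miR-30e-3p (0.62) passed the threshold, and miR-30c-5p (0.11) lies nearest to 0.

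Among the 3p members, miR-30e-3p rose. It was at 5551, 5452 and 5957 normalized counts in sham and at 7996, 9453 and 8707 in CCI-ION. The groups did not overlap, and replicate 2 was the highest of the CCI-ION libraries although it was the lowest of them for miR-30e-5p. The log2 fold change was 0.62 (SE 0.12, 95% confidence interval 0.33 to 0.91, adjusted p = 0.0435 from limma). That call was close to the threshold, since without any one library the adjusted p lay between 0.0502 and 0.144. With upper-quartile scaling the log2 fold change fell to 0.38, with an adjusted p of 0.0599.

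miR-30a-3p showed a like arrangement, with 3213, 3357 and 3773 normalized counts in sham and 4406, 5526 and 4978 in CCI-ION. No sham library reached the CCI-ION range, and replicate 2 was again the highest of its group. The log2 fold change was 0.52 (SE 0.14) and its adjusted p 0.0788 from limma. With upper quartiles that fold change was 0.28 (adjusted p = 0.177), and with total counts it was 0.73 (adjusted p = 0.0410). It passed the threshold with 3 of the 5 other scalings. The study lists the same forward PCR primer for miR-30a-3p and miR-30e-3p. The miR-30e-3p sequence was not available here, so whether reads of these arms could be split between them was not checked.

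The other 3p members were sparse. miR-30b-3p had 425, 330 and 321 normalized counts in sham and 414, 491 and 480 in CCI-ION, and the groups overlapped (log2 fold change 0.37, SE 0.16, adjusted p = 0.169 from limma). miR-30c-1-3p had 199, 222 and 234 in sham and 263, 267 and 267 in CCI-ION, which did not overlap (log2 fold change 0.28, SE 0.11, adjusted p = 0.146 from limma). miR-30d-3p, the rarest member, had 113, 89.0 and 80.9 in sham and 135, 97.4 and 116 in CCI-ION. Its groups overlapped, and its log2 fold change was 0.30 (SE 0.19, adjusted p = 0.306 from limma), which was 0.19 without CCI-ION replicate 1 and 0.20 without sham replicate 3. miR-30c-2-3p, outside the members, had 1170, 1059 and 1160 in sham and 1280, 1630 and 1267 in CCI-ION (log2 fold change 0.29, SE 0.14, adjusted p = 0.205 from limma, and 0.17 without CCI-ION replicate 2). With upper quartiles the fold changes of miR-30b-3p, miR-30c-1-3p, miR-30d-3p and miR-30c-2-3p were 0.12, 0.039, 0.055 and 0.046. The median log2 fold change was 0.37 for the 5 3p members and 0.85 for the 5 5p members, and with upper quartiles 0.12 and 0.60, where that of all miRNAs was -0.26.

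The family as a whole took 3.07, 3.62 and 3.40% of all miRNA reads in sham and 5.70, 5.95 and 6.32% in CCI-ION. The groups lay apart, and counting error was small beside the gap, since the 95% Wilson intervals reached at most 0.0158 percentage points to either side. Such intervals cover counting error only. With the reads of miR-7a-5p left out of the total, the share was 4.20% ± 0.141 in sham and 6.77% ± 0.467 in CCI-ION (SD, n = 3 each). Most of the added normalized counts were those of miR-30d-5p: the summed level of the 10 members was 403125 in sham and 625639 in CCI-ION, a ratio of 1.55, and without miR-30d-5p it was 274531 and 326229, a ratio of 1.19.

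miR-30d-5p made up 33.4, 31.0 and 31.4% of the family's reads in sham and 48.5, 44.7 and 50.3% in CCI-ION. miR-30c-5p made up 55.6, 58.7 and 57.9% in sham and 39.4, 46.0 and 34.9% in CCI-ION. Both sets of shares lay apart between the groups, in opposite directions, while the pair together held 89.3% ± 0.332 in sham and 87.9% ± 2.77 in CCI-ION (SD, n = 3 each). The shares of miR-30a-5p overlapped, at 6.31, 6.08 and 6.26% in sham and 6.99, 5.34 and 10.1% in CCI-ION. A share falls when another member gains, and miR-30c-5p itself did not differ detectably in normalized count. As a share of all miRNA reads it was 1.71, 2.12 and 1.97% in sham and 2.25, 2.74 and 2.21% in CCI-ION. These shares did not overlap.

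**Figure D3:**
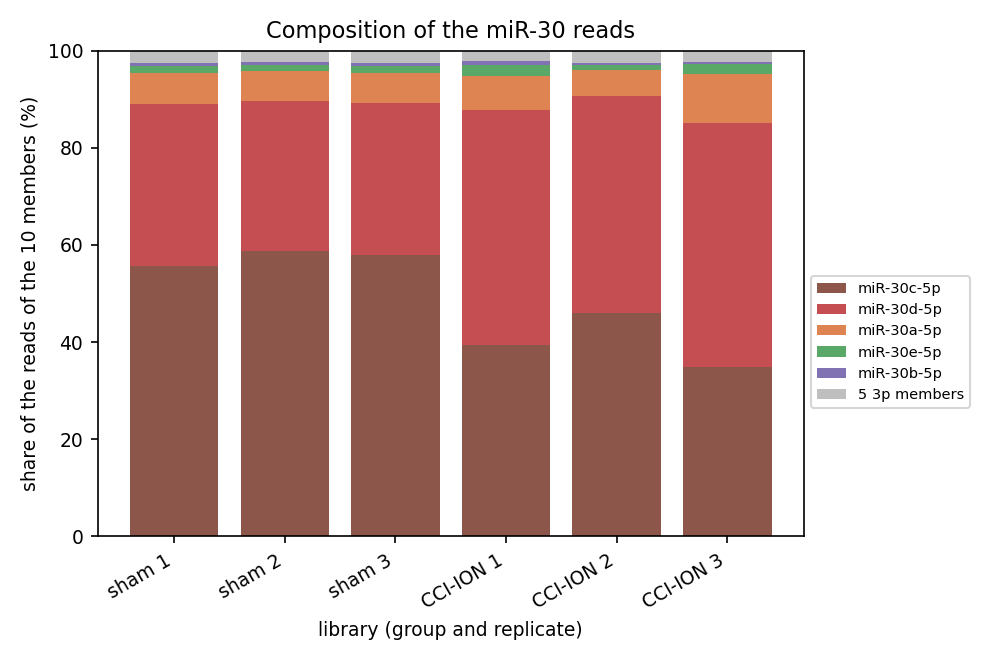
Share of the family's reads (percent) held by each 5p member and by the 5 3p members together, as 1 stacked bar from 0 for each of the 6 libraries. The miR-30d-5p part is 31.0 to 33.4% in sham and 44.7 to 50.3% in CCI-ION, and the miR-30c-5p part is smaller in every CCI-ION library.

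Whether the 5p members moved to different extents was tested on their ratios within a library, which do not depend on the scaling. For the 10 pairs of 5p members, the exact two-sided permutation test over 3 libraries against 3 cannot give a p below 0.1, so no pair could pass 0.05. The groups did not overlap for 3 pairs, each with an exact p of 0.1 (0.333 adjusted over the 10 pairs), and for 37.6% of all pairs of miRNAs tested. The ratio of miR-30d-5p to miR-30c-5p was 0.601, 0.528 and 0.542 in sham and 1.23, 0.973 and 1.44 in CCI-ION, a difference of 1.11 on the log2 scale (SE 0.17). Every CCI-ION library had a higher ratio than any sham library.

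Within the Mir30b and Mir30d cluster, the ratio of miR-30d-5p to miR-30b-5p was 45.1, 45.1 and 55.0 in sham and 67.3, 94.4 and 115 in CCI-ION, a difference of 0.90 on the log2 scale (SE 0.24). The ratio of miR-30a-5p to miR-30c-5p was 0.114, 0.104 and 0.108 in sham and 0.177, 0.116 and 0.290 in CCI-ION, where replicate 2 stood just above sham. Taken as miR-30c-5p to miR-30a-5p the log2 difference was -0.74, and it was -0.40 without CCI-ION replicate 3. The ratio of miR-30e-5p to miR-30c-5p overlapped, at 0.0269, 0.0213 and 0.0239 in sham and 0.0560, 0.0206 and 0.0593 in CCI-ION (exact permutation p = 0.4). Between miR-30e-5p and miR-30a-5p the log2 ratio differed by 0.03 (exact permutation p = 1). With both arms summed, the log2 ratios of the neighbouring hairpins differed by 0.89 for miR-30d over miR-30b, 0.71 for miR-30a over miR-30c-2 and 0.68 for miR-30e over miR-30c-1. The difference for miR-30a over miR-30c-2 was 0.40 without CCI-ION replicate 3. None of the 3 overlapped between groups (exact permutation p = 0.1 each, beside the 37.6% of all pairs of miRNAs), and the ratios over miR-30c-2 and miR-30c-1 both count the shared miR-30c-5p.

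The ratio of the arms was compared next, for 218 hairpins with both arms listed. In all, 22 hairpins passed the threshold (10.1%), and 3.67% of the hairpins passed with the 5p arm relatively higher in CCI-ION. miR-30d was the 1 hairpin of the family among them. Its 5p arm outnumbered its 3p arm by 1152, 1425 and 1590 to 1 in sham and by 2152, 2871 and 2822 to 1 in CCI-ION. The CCI-ION ratios all lay above those of sham, and the difference was 0.92 on the log2 scale (SE 0.19, 95% confidence interval 0.43 to 1.40, adjusted p = 0.0438 from limma). The 3p arm rests on 80 to 145 reads a library, and without any one library the adjusted p lay between 0.0575 and 0.130.

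miR-30e carried nearly equal arms. Its 5p to 3p ratio was 1.05, 0.937 and 0.953 in sham and 1.66, 0.626 and 1.55 in CCI-ION. Replicates 1 and 3 of CCI-ION lay above sham and replicate 2 below it, so the log2 difference of 0.26 did not pass (adjusted p = 0.715 from limma). Single CCI-ION libraries decided this value: it was 0.71 with an adjusted p of 0.0418 without replicate 2, 0.0097 (adjusted p = 0.987) without replicate 1 and 0.057 (adjusted p = 0.953) without replicate 3.

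miR-30a had 5p to 3p ratios of 7.66, 7.41 and 6.81 in sham and 9.50, 6.04 and 13.2 in CCI-ION, with replicate 2 again below sham (log2 difference 0.32, adjusted p = 0.500 from limma). That difference was 0.056 without CCI-ION replicate 3 and 0.62 without CCI-ION replicate 2. miR-30b had ratios of 6.80, 8.51 and 7.29 in sham and 10.4, 6.04 and 5.96 in CCI-ION, which overlapped (log2 difference -0.06, adjusted p = 0.934 from limma). For miR-30c-5p the ratio was 1090, 1082 and 1013 to miR-30c-1-3p in sham and 897, 1078 and 852 in CCI-ION, and it did not pass (log2 difference -0.18, adjusted p = 0.419 from limma, and -0.28 without CCI-ION replicate 2 and -0.11 without CCI-ION replicate 3). To miR-30c-2-3p it was 185, 227 and 205 in sham and 184, 176 and 180 in CCI-ION, which did not overlap, with CCI-ION lower (log2 difference -0.19, adjusted p = 0.372 from limma, and -0.11 without sham replicate 2). Since miR-30c-5p comes from both miR-30c hairpins, neither is the ratio of 1 hairpin. CCI-ION replicate 2 was the lowest of its group for miR-30a-5p, miR-30d-5p, miR-30d-3p and miR-30e-5p. It was the highest for miR-30a-3p, miR-30b-3p, miR-30e-3p and miR-30c-5p.

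**Figure D4:**
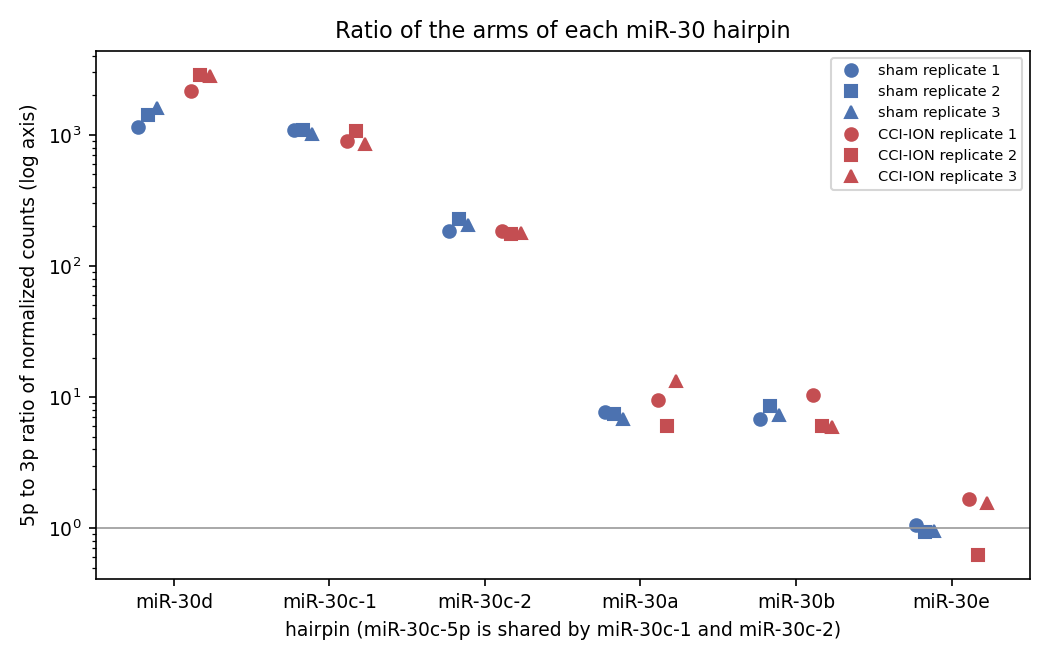
5p to 3p ratio of normalized counts (log axis) of each miR-30 hairpin, with 1 symbol for each of the 3 sham and 3 CCI-ION libraries and a line at equal arms. The miR-30d ratios are 1152 to 1590 in sham and 2152 to 2871 in CCI-ION. CCI-ION replicate 2 alone falls below sham for miR-30a and miR-30e. Below sham are also CCI-ION replicates 2 and 3 for miR-30b and all 3 CCI-ION libraries for miR-30c-2.

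miR-384-5p shares the GUAAACA seed with the 5p members. It was at 3219, 3040 and 3025 normalized counts in sham and at 2224, 1395 and 1669 in CCI-ION. Its groups did not overlap, and the CCI-ION libraries were the lower. The log2 fold change was -0.84 (SE 0.19, adjusted p = 0.0597 from limma). Under the 17 alternatives in processing it lay between -1.09 and -0.60, and miR-384-5p passed the threshold in 5 of them. Its level in sham was near that of miR-30b-5p and far below that of miR-30c-5p.

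Of the 20 most abundant miRNAs outside the family, 5 had a log2 fold change above 0, with a median of -0.17, and 2 passed the threshold, 1 in each direction. An unadjusted p under 0.05 from limma was found for 13 of these 20, 4 higher and 9 lower in CCI-ION. The groups did not overlap for 13, and for 4 of those CCI-ION was higher.

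The miRNAs whose levels moved most like those of miR-30d-5p across the 6 libraries, by the root mean square difference of centred log2 values, were miR-24-2-5p (0.171), miR-148a-3p (0.173) and miR-152-5p (0.179). Their log2 fold changes were 1.01, 1.42 and 1.10, which describe the choice, since the likeness includes the difference between the groups. No member came as near to miR-30d-5p, the nearest being miR-30a-5p at 0.287 and the farthest miR-30c-5p at 0.581. For miR-30a-5p the nearest were miR-341 (0.107), miR-106b-5p (0.145) and miR-143-5p (0.157), ahead of miR-30e-5p at 0.258. Their log2 fold changes were 0.71, 0.86 and 0.69.

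Some miRNAs typical of other cell types passed the threshold beside these members. The summed level of 6 miRNAs of vessel wall and fibroblasts was 41749 to 58068 normalized counts in sham and 88764 to 107506 in CCI-ION, and 3 of the 6 passed the threshold, all higher. The 10 miRNAs of pituitary and epithelium summed to 16324 to 23195 in sham and 20604 to 51334 in CCI-ION, 1 of them higher past the threshold. These 2 ranges overlapped. The sums of 3 oligodendrocyte miRNAs were 9165 to 14031 in sham and 7133 to 7612 in CCI-ION, 1 of them lower past the threshold. The 2 endothelial miRNAs went opposite ways, with log2 fold changes of 0.44 for miR-126a-3p and -0.91 for miR-126a-5p, neither past the threshold in limma and 1 with an unadjusted p under 0.05. Their sum, mostly miR-126a-3p, was 45442 to 54854 in sham and 63095 to 70810 in CCI-ION. Neuronal miRNAs, 6 of 6 listed, summed to 2041436 to 2229136 in sham and 1616061 to 2011890 in CCI-ION, 1 lower past the threshold. For the 6 miRNAs of microglia and leukocytes, the 5 of choroid plexus and ependyma and the 3 of erythrocytes, limma called none, and 2, 1 and 1 of them had an unadjusted p under 0.05. Of all miRNAs tested, 6.85% passed the threshold, 3.42% in each direction, and 33% had such an unadjusted p. No listed marker was at 0 in all libraries. All 10 log2 fold changes of pituitary and epithelium were above 0 (median 0.91), against 48.8% of all miRNAs. So were all 6 of vessel wall and fibroblasts (median 0.98) and all 5 of choroid plexus and ependyma (median 0.23). Above 0 were 1 of 6 neuronal, 0 of 3 oligodendrocyte, 3 of 6 microglia and leukocyte and 1 of 3 erythrocyte miRNAs. The part of these cell types in the levels of the miR-30 members was not tested, and in bulk tissue a change in the number of cells of a type and a change in RNA per cell cannot be told apart.

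The plot of fold changes under other processing shows every member's value as reported and under each alternative. The spread between scalings was like in all members, since a scaling moves every miRNA by the same amount.

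**Figure D5:**
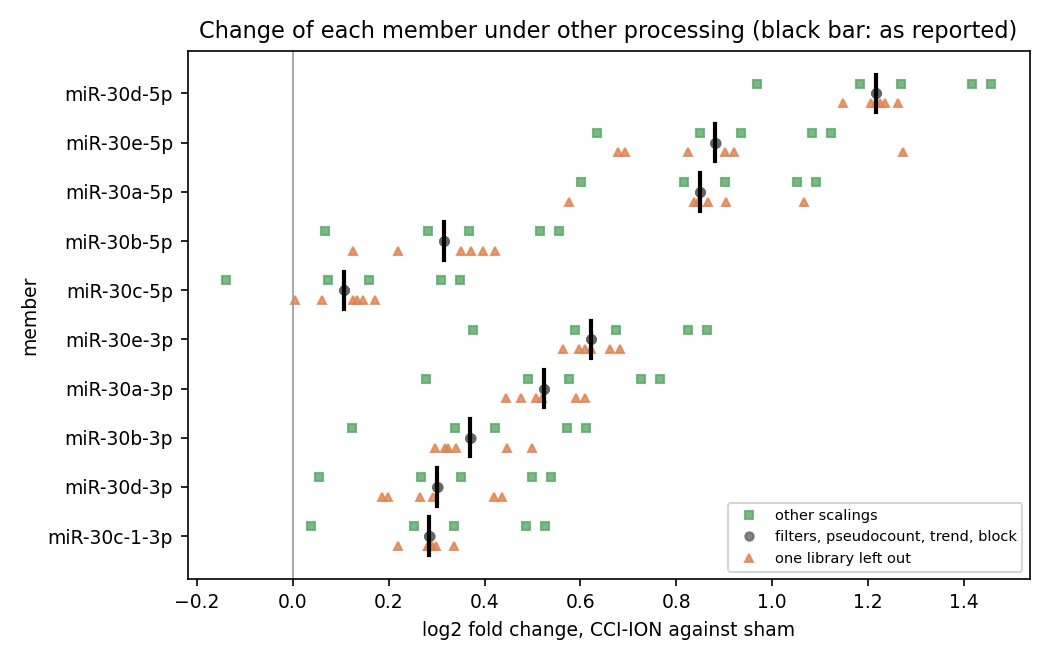
Log2 fold change (CCI-ION over sham) of each member as reported (black bar), with other scalings (squares), with other filters, pseudocount, trend or block (circles) and with 1 library left out (triangles). miR-30d-5p stays between 0.97 and 1.46, and miR-30c-5p falls to -0.14 with upper-quartile scaling.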

How the data were processed

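RNA of ARC tissue was extracted with Trizol, and the labels name an Illumina TruSeq kit. The submitters' processing notes name cutadapt 1.14, Bowtie 1.1.1 and build rn6, while the miRNA annotation and the mismatches allowed are not given in the sources used here. The authors deposited 1 signal value per miRNA and library. Within 0.1 of a read, all values were whole multiples of a step that equalled the inverse of a median-of-ratios size factor. They were therefore taken as read counts divided by that factor, with the smallest value above 0 worth 5 reads, which no source states, and tests for counts were not used. Libraries were grouped by their labels.

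Normalized counts were compared on the scale log2(value + 1), which slightly understates the change of low miRNAs, with limma 3.58.1 in R 4.3.3, two-sided, with Benjamini-Hochberg adjustment over the 555 of 562 miRNAs with a mean of at least 1 and a threshold of 0.05. The log2 ratio of the arms was tested likewise over 218 hairpins, and ratios between members by exact permutation tests (Python 3.11.15). Replicate libraries differed by more than sampling noise. The tests were tested on simulated data. Named were all members, miR-30c-2-3p, miRNAs sharing a seed with a member, the 3 nearest miRNAs to miR-30d-5p and to miR-30a-5p, and the most abundant miRNA. The members, the marker lists and these rules were chosen with earlier results of these data known. Alternatives were 5 scalings, 3 filters, a pseudocount of 0.1, an intensity trend, a replicate block and leaving out each library. Sequences came from RefSeq (GRCr8), and no genome was used.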

Additional observations from a re-analysis of the deposited data

How the results depend on the processing

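miR-30d-5p kept its direction under all 17 alternatives, with log2 fold changes from 0.97 to 1.46, and passed the threshold in 16 of them. The exception was the fit with the replicate number as a block, where it was 1.22 with an adjusted p of 0.0823. Same-numbered libraries did not deviate together (correlations of -0.03, 0.19 and -0.01), so the numbers were not taken as pairs. miR-30e-3p passed in 9 of the 17 and was lost with upper quartiles, with the block and without each library in turn. Of the 10 members, 2 passed as reported, where 38 of the 555 miRNAs tested passed. With upper-quartile scaling it was 1 member and 94 of 555 miRNAs. A minimum of 10 reads per library gave 4 members and 96 of 457 miRNAs, and an intensity trend 4 members and 88 of 555. The replicate block gave 0 members and 3 of 555 miRNAs. With the block, 5 members had an unadjusted p under 0.05 in limma, beside 27.7% of all miRNAs. With 1 library left out, 1 to 2 members and 7 to 43 of 555 miRNAs passed.

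Over all miRNAs the count past the threshold was 38 as reported, 94 with upper quartiles, 63 with scaling without the members, 63 with a mean of at least 10, 96 with at least 10 reads, 88 with the trend, 3 with the replicate block, and 7 to 43 with 1 library left out. Higher calls were 50% of these as reported, 82.4% with total counts, 61.2% with totals without miR-7a-5p, 84.1% with totals without the members, 35.7% with TMM and 10.6% with upper quartiles. Under these scalings the median change over all miRNAs (log2) was 0.17, 0.02, 0.20, -0.05 and -0.26, and with upper quartiles miR-30c-5p turned to -0.14.

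The arm difference of miR-30d was 0.92 as reported, 0.91 with a pseudocount of 0.1 (adjusted p = 0.0546), 0.92 with the trend (0.0550), 0.92 with the replicate block (0.0890), and 0.79 to 1.05 with 1 library left out. Of the hairpins, 22 passed as reported, 0 with the replicate block (66 with an unadjusted p under 0.05 in limma), and 1 to 21 with 1 library left out. Leaving out 1 library moved the number of 5p pairs that did not overlap between 3 and 5. Fewer libraries make non-overlap easier, and the share over all pairs of miRNAs was not computed for these subsets. Leaving out 1 library also moved the arm difference of miR-30b between -0.32 and 0.081. The log2 ratio difference of miR-30e-5p to miR-30a-5p lay between -0.21 and 0.21 in these subsets. It lay between -0.39 and 0.020 for miR-30c-5p to miR-30b-5p, and between -0.54 and 0.010 for miR-30e-5p to miR-30d-5p. The cause of these changes was not tested. Tests on read counts were not run.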
